A study of Mus musculus with 6 samples.

Results

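Mouse embryos at the 4-cell stage that are labelled YAP-null were compared with wild-type embryos of the same stage. The comparison uses 2 of the 6 libraries of the series, chosen by their titles: 1 YAP-null and 1 wild-type 4-cell library, each made from 60 embryos and sequenced as paired-end bulk RNA. The YAP-null embryos came from YAP-/- mothers and are themselves labelled YAP-/- with Yap1 deleted, while the wild-type embryos came from WT mothers. All mothers were on the ICR background, were 21 to 23 days old, received PMSG and hCG and were mated. Neither the fathers' genotype nor the promoter of any Cre driver is given in the labels. The other 4 libraries come from oocytes before meiotic maturation, at the germinal vesicle (GV) stage, 2 YAP-null and 2 wild type, each from 60 oocytes of females of the same kinds. They serve here as the starting level of each transcript. With a single library per genotype at the 4-cell stage there are no replicates, and every difference below is a description of these libraries with no test.

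YAP is a transcriptional coactivator that the kinases of the Hippo pathway hold in the cytoplasm; in the nucleus it works with DNA-binding partners of the TEAD family. The egg is transcriptionally silent at the end of its growth and lives on stored mRNA, which is masked, translated and destroyed in an ordered way while the zygotic genome is switched on. In the mouse this exchange of maternal for zygotic transcripts runs through the cleavage stages. YAP with TEAD4 is best known in the later embryo for setting the trophectoderm, the outer layer that forms the placenta. The title of the series names YAP from the oocyte as an activator of the early zygotic genome.

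The targeted transcript, Yap1 (chromosome 9, 7932001 to 8004596, mm9), was at 10.8 and 10.04 FPKM in the GV libraries labelled YAP-null; their wild-type counterparts held 248 and 154 FPKM. The 4-cell values were 33.3 FPKM for YAP-null, within bounds of 30.9 to 35.8 given in the deposited table, and 89.7 FPKM for wild type, within 86.0 to 94.0. FPKM counts mapped fragments scaled by transcript length and by the size of the library. The transcript was thus lower in the YAP-null library at both stages, but it was not absent. At the 4-cell stage it was lower by 1.40 on the log2(FPKM + 1) scale, which is used for every difference below. Its 4-cell value was 320% of the GV mean in YAP-null and 44.7% in wild type. The labels disagree on these samples: the source entry says GV oocyte, whereas title and stage say 4-cell. Some embryonic genes separate them from oocytes. The pluripotency genes Tdgf1 and Klf5 were at 0.642 FPKM or less in every GV library. In the 4-cell libraries they were at 6.48 to 106 FPKM. They are among 10 listed 4-cell markers, not all of which were low in oocytes. That list summed to 307 to 409 FPKM in the GV libraries, and to 765 (YAP-null) and 1036 FPKM (wild type) at the 4-cell stage. The lowest share of the GV mean in it was 22.2% (YAP-null) and 68.1% (wild type). Total reads are unknown. Over 3748 genes from 10 to 1000 FPKM, the bounds lay a median of 9.63% (YAP-null) and 8.80% (wild type) to either side of their midpoint, relative to the value; they cover counting error only.

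Of 23308 gene symbols, 10854 averaged 1 FPKM or more over the 4-cell pair and were kept. Between genotypes 3007 of them (27.7%) lay at least 2-fold apart, 1925 (17.7%) higher in YAP-null embryos and 1082 (9.97%) lower, with a median difference of 0.05. Higher genes made up 64.0% of these calls. The split moved with the scaling: higher genes were 75.4% (2346 against 765) when both libraries were rescaled to the same sum, and 52.8% (1516 against 1355) after quantile normalization. These scalings shifted the median of all genes to 0.23 and -0.08. The spread between samples of one genotype is known only for oocytes, where 26.9% of genes in the YAP-null pair and 23.3% in the wild-type pair lay at least 2-fold apart between GV libraries 2 and 1. The share of genes past 2-fold at the 4-cell stage was therefore close to that between oocyte samples of the same genotype. Between genotypes, oocyte libraries of the same number were more alike, and whether the 4-cell pair was handled like such a pair is not stated in the labels: 0.627% of genes were at least 2-fold higher and 0.995% lower in YAP-null library 1, and 0.652% and 0.888% in library 2. By counting error alone, 36.2% of 9737 genes were higher and 28.3% lower with bounds that did not touch. In bulk samples like these, fewer cells of a type and less RNA per cell cannot be told apart.

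**Figure D1:**
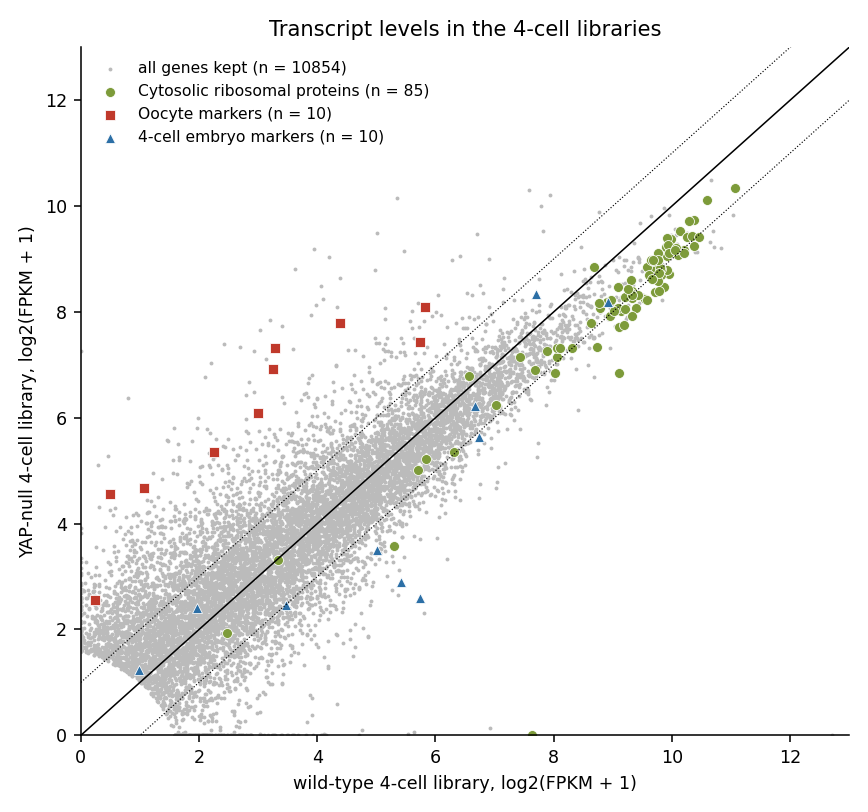
Each grey point is 1 of 10854 genes, with its log2(FPKM + 1) in the wild-type 4-cell library on the horizontal axis and in the YAP-null 4-cell library on the vertical axis; the solid line is equality and the dotted lines are 2-fold. The 10 oocyte markers (red squares) lie above the upper dotted line, and 83 of the 85 ribosomal protein genes (green circles) lie below equality.

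Transcripts that the oocyte had held in large amounts were mostly higher in the YAP-null library. Among 282 genes with a GV mean of 200 FPKM or more, the median difference was 1.02, with 50.4% of genes at least 2-fold higher in the YAP-null library and 5.32% lower; between GV libraries 2 and 1 the same genes had medians of -0.43 (YAP-null) and -0.30 (wild type). Among 736 genes under 0.1 FPKM in the GV mean it was -0.11, with 11.7% higher and 22.6% lower. The bins between them had medians of -0.17 from 0.1 to 1 FPKM, -0.01 from 1 to 10, 0.12 from 10 to 50 and 0.20 from 50 to 200. Taking the oocyte-stored genes as those with a GV mean of at least 10 FPKM, 5414 of 5578 passed the 4-cell filter; 1250 were at least 2-fold higher and 341 lower. Of 7922 genes under 0.1 FPKM in every GV library, 498 passed the filter, 64 of them higher and 118 lower. The median of these 498 genes, -0.11, was 0.065 after rescaling to the same sum, beside an all-gene median of 0.23, and -0.36 after quantile normalization, so its sign depends on the scaling. The GV libraries defined both sets, but the 4-cell filter decided which members were counted, and a gene can pass it through the library in which it is high.

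**Figure D2:**
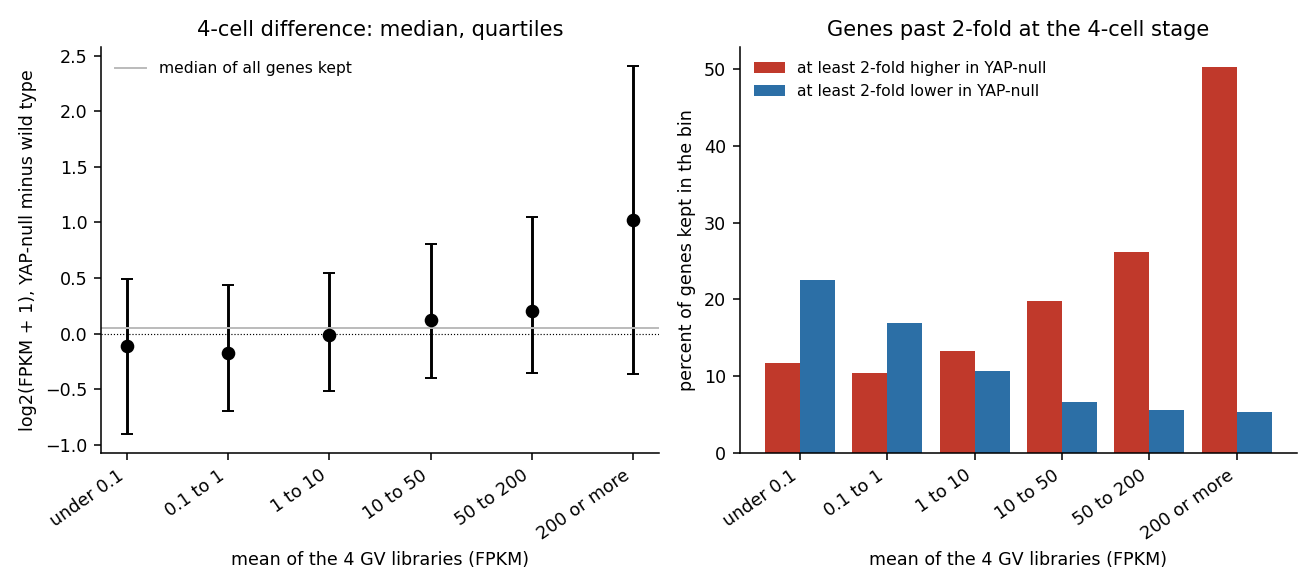
Genes are grouped on both horizontal axes by the mean of the 4 GV libraries in FPKM; the left panel plots the median 4-cell difference in log2(FPKM + 1) with quartiles, and the right panel the percent of genes at least 2-fold higher (red) or lower (blue) in the YAP-null library. The most abundant oocyte transcripts stand at a median of 1.02 and the genes under 0.1 FPKM in the GV mean at -0.11; the genes under 0.1 FPKM in every GV library also stand at -0.11, but at 0.065 after rescaling to the same sum.

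Another way to read the same libraries is the 4-cell FPKM of each transcript as a share of its own-genotype GV mean. FPKM is scaled to the size of each library, so this share is not the fraction of molecules kept. Over 5419 stored genes the median share was 66.3% in the YAP-null library and 54.0% in the wild-type library. For the 282 genes at 200 FPKM or more the medians were 42.5% and 15.3%. In the wild-type library 621 stored genes had gone under 5% of their GV mean, against 178 in the YAP-null library; 119 genes were in both lists, which is 19.2% of the first and 66.9% of the second. Most of the 621 transcripts were below their GV mean in the YAP-null library too. They were picked by a low wild-type value, so a higher share in the YAP-null library is in part fixed by that choice. Their median share there was 11.6%: 343 stood between 5% and 20%, 156 between 20% and 100%, and 3 above 100%.

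The defining transcripts of the oocyte stood higher in YAP-null than in wild-type 4-cell embryos. All 10 oocyte markers were at least 2-fold higher, against 17.7% of all genes, with a median of 3.25; the GV library 2 minus 1 medians of the same genes were 0.68 (YAP-null) and 0.33 (wild type). Gdf9, a growth factor the oocyte sends to the surrounding follicle cells, was at 1996 and 2695 FPKM in YAP-null oocytes, against 2576 and 2875 FPKM in wild-type ones. At the 4-cell stage it was at 220.2 FPKM (YAP-null) and 19.9 FPKM (wild type). Both 4-cell values were far below every GV value, and the YAP-null one was the higher by 3.40. Its partner Bmp15 was at 39.7 and 3.75 FPKM. Zp2, a sperm-binding protein of the egg coat, was at 295 and 1315 FPKM in YAP-null oocytes, 312 and 1319 FPKM in wild-type oocytes, and then at 121 FPKM (YAP-null) and 8.47 FPKM (wild type). Mos, the kinase that keeps the egg arrested in metaphase, was at 22.6 and 0.414 FPKM. H1foo, the linker histone of oocytes, was at 159 and 8.78 FPKM, and the oocyte transcription factor Nobox at 24.6 and 1.10 FPKM. As a share of the oocyte level, the 10 markers had a median of 12.1% in the YAP-null and 0.853% in the wild-type library.

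Egg coat and fertilization genes were at least 2-fold higher in 8 of 11 members and lower in 2, with a median of 2.28. Folr4, the egg receptor for the sperm protein Izumo, was at 7.41 and 0.0930 FPKM. The lower members were Mfge8 and Cd9, a membrane protein needed for sperm fusion, which was at 90.6 and 188 FPKM. The list of oocyte growth and transcription factors had 14 kept members, 9 of them higher and 1 lower, and a median of 1.87. Its gap junction genes went apart. Gja4, the connexin of the oocyte side of the follicle, was at 16.4 FPKM (YAP-null) and 0.697 FPKM (wild type), down from 336 to 751 FPKM in the GV libraries. Gja1, the connexin of the cleaving embryo, was at 2.01 to 3.83 FPKM in the GV libraries and had reached 32.8 FPKM (YAP-null) and 133 FPKM (wild type). The stored connexin was the higher, and the embryonic one the lower, in the YAP-null embryos.

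The subcortical maternal complex, an oocyte protein assembly needed for cleavage beyond the first divisions, had 7 of 8 transcripts at least 2-fold higher and none lower. Zbed3 was the extreme: it was at 2572 and 3065 FPKM in YAP-null oocytes, 2403 and 3139.5 FPKM in wild-type oocytes, and at 1137 FPKM against 39.7 FPKM at the 4-cell stage. These 4-cell values were 40.3% (YAP-null) and 1.43% (wild type) of the GV mean in FPKM. Ooep was at 63.2 and 2.97 FPKM, Tle6 at 85.9 and 12.8 FPKM, and Padi6, a peptidylarginine deiminase of the cytoplasmic lattices, at 181 and 30.6 FPKM. Khdc3 differed from the others, with 47.4 and 42.3 FPKM and bounds that overlapped. Of the 34 maternal-effect genes, many of which the mother must supply for her embryos to develop, 22 were at least 2-fold higher and 2 lower, with a median of 1.93. The histone chaperone Npm2 was at 111 and 14.0 FPKM. The germline factor Dppa3 was at 1439.7 and 1625 FPKM, and above its GV level in both genotypes. Cdh1, the adhesion protein E-cadherin, was at 10.4 and 31.2 FPKM, lower in the YAP-null library by 1.50.

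The Tcl1 genes, small AKT coactivators clustered on chromosome 12, formed the list with the highest median, 4.65, with 6 of 6 members at least 2-fold higher. The GV library 2 minus 1 medians were -0.62 and -0.29. Tcl1b3 was at 111 and 90.6 FPKM in YAP-null oocytes, 104 and 95.6 FPKM in wild-type oocytes, and at 168 FPKM against 4.37 FPKM at the 4-cell stage. Its 4-cell level was thus above both YAP-null oocyte values, while the wild-type level was far below every one. Tcl1b4 was at 81.6 and 0.741 FPKM, Tcl1b1 at 211 and 9.57 FPKM, Tcl1b2 at 101 and 6.21 FPKM, and Tcl1b5 at 35.9 and 1.95 FPKM. Over the family the median share of the oocyte level was 83.4% in the YAP-null and 3.52% in the wild-type library. RefSeq promoters, the 250 bases before to 50 after a gene's start (GRCm38.p6), were searched for the TEAD recognition letters GGAATG on either strand (CATTCC on the other). Tcl1b1, Tcl1b4 and Tcl1b5 each hold 1 match just downstream of the start, in stretches nearly equal between the paralogs. No result is given here for Tcl1, Tcl1b2 and Tcl1b3, so the match is not described as a trait of the family. The stretches are shown as examples because they hold a match, so they do not tell how often the family holds one. Capitals mark the match.
Tcl1b1, chr12:105159694-105159723, plus strand: tgagttctcagtCATTCCcctgtctgaccg
Tcl1b4, chr12:105202412-105202441, plus strand: tgagttctcagtCATTCCcctgtctgaccg
Tcl1b5, chr12:105176348-105176377, plus strand: tgagttctctgtCATTCCcctgtctgaccg
The first base of the match lies 3, 30 and 17 bases from the start. The same letters occur in 14.7% of 32851 RefSeq promoters and in 11.8% of those of kept genes, so a match is common.

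Other oocyte families showed the same side of the difference. The Oas1 cluster, relatives of the viral RNA sensor, had 6 of 6 kept members at least 2-fold higher and a median of 2.65; Oas1e was at 46.2 and 1.78 FPKM and Oas1h at 27.8 and 1.58 FPKM. The oocyte homeobox genes did not all lie on one side. Obox1, Obox2 and Obox5 are stored, at 412 to 2454 FPKM in the GV libraries, and were at 153, 201 and 270.5 FPKM in the YAP-null against 6.64, 7.14 and 19.2 FPKM in the wild-type 4-cell library. Obox6 was at 0.279 FPKM or less in every GV library and was at 309 FPKM (YAP-null) and 531 FPKM (wild type). Obox3, also nearly absent from oocytes, stood at 131 and 51.1 FPKM, higher in the YAP-null library. Of 23 ubiquitin ligase adaptors abundant in oocytes, 17 were higher and 1 lower, with a median of 2.59. Rfpl4, a RING finger protein of the oocyte, was at 159.9 and 5.48 FPKM and Trim61 at 566 and 43.5 FPKM. The lower member was Fbxo15, an embryonic gene at 7.10 FPKM or less in oocytes, at 561 and 1346 FPKM. Some stored transcripts exceeded their oocyte level in the YAP-null library only: C86187 was at 177 to 278 FPKM in the GV libraries and at 716 against 31.3 FPKM, and Omt2b at 328 to 425 FPKM and then at 1177 against 244 FPKM.

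**Figure D3:**
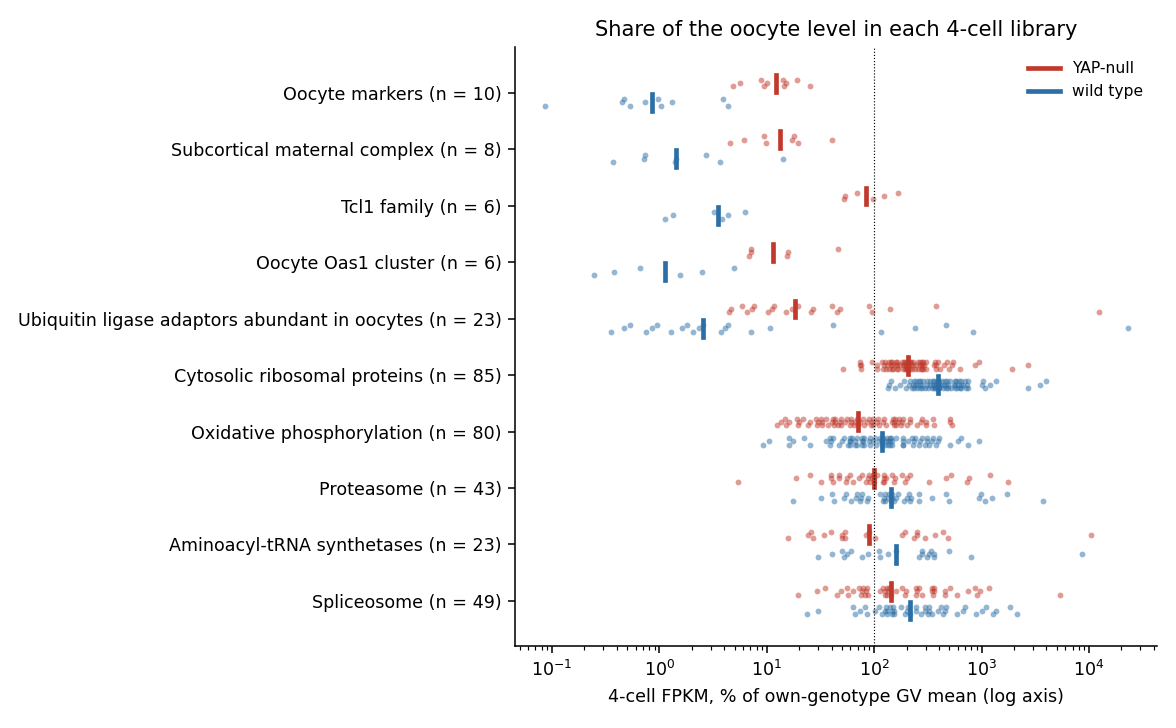
The horizontal log axis is the 4-cell FPKM as a percent of the mean of the same genotype's GV libraries; each point is a list member and each vertical bar the list median, red for YAP-null and blue for wild type, with the dotted line at 100%. Oocyte markers stand at a median of 12.1% against 0.853%, whereas ribosomal protein genes are above 100% in both, at 205% and 396%; points under 0.01% or without a GV value are not drawn.

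Genes that destroy mRNA had a median near that of all genes, while several that mask or polyadenylate it were higher. For deadenylation and decay the median was -0.13 and changed sign with the scaling. Of 44 kept members 7 (15.9%) were at least 2-fold higher and 1 lower, against 5 and 4 after quantile normalization. The higher share was near the 17.7% of all genes. Btg4, the adaptor that brings the deadenylase to maternal mRNA, was at 532 and 337 FPKM in YAP-null oocytes, 406 and 362 FPKM in wild-type oocytes. In 4-cell embryos it was at 440.5 FPKM (YAP-null) and 30.4 FPKM (wild type), so the YAP-null value lay within the oocyte range. The deadenylase subunits Cnot6l and Cnot7 were at 36.4 against 3.72 FPKM and at 102 against 29.6 FPKM. Dcp1a, a decapping activator, was at 83.4 and 9.61 FPKM. Among proteins that mask or polyadenylate stored mRNA, 10 of 24 were higher, against 17.7% of all genes, and 1 lower. Their median was 0.44, close to their GV library 2 minus 1 medians of 0.35 (YAP-null) and 0.41 (wild type). Some oocyte forms and their general relatives, chosen after their values were seen, lay on different sides. Ybx2, the Y-box protein of germ cells, was at 75.3 and 14.3 FPKM, while its general relative Ybx1 was at 353 and 609.7 FPKM. Eif4e1b, the oocyte form of the cap-binding protein, was at 437 to 832 FPKM in the GV libraries and at 228 against 8.20 FPKM at the 4-cell stage. Pabpc1l, the oocyte form of the cytoplasmic poly(A)-binding protein, was at 9.54 and 1.09 FPKM, and Pabpc1, the general one, at 173 and 318 FPKM.

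Meiotic regulators gave a median of 0.30, with 6 of 32 members higher and 1 lower (8 and 0 after rescaling to the same sum). The higher share, 18.8%, was near the 17.7% of all genes. Wee2, the oocyte kinase that holds the meiotic arrest, was at 85.5 and 5.97 FPKM. Rgs2, a regulator of G-protein signalling, was at 33.3 and 0.223 FPKM, against 152 to 235 FPKM in oocytes. Fbxo43, the inhibitor that keeps the egg in metaphase, was at 30.8 and 6.45 FPKM. The mitotic regulators of the same list differed little: Ccnb1 was at 502 and 585 FPKM and Plk1 at 148 and 194 FPKM. The phosphatase Cdc25a was the 1 lower member, at 41.5 and 86.5 FPKM. For G1 and S phase genes the median was -0.15, a sign that changed with the scaling, with 5 of 25 higher (20%) and 2 lower. This higher share too was near that of all genes. The higher ones included the E2F factors E2f5 (143 and 26.3 FPKM) and E2f4 (144 and 43.7 FPKM), while cyclin E1 (Ccne1), made anew by the embryo, was at 219 FPKM in both libraries. The separase inhibitor Pttg1 was at 742 and 224 FPKM.

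Among YAP's own partners the embryonic TEAD was lower, by a margin that depends on the scaling. Tead4, the TEAD of the early embryo, was at 0.197 FPKM or less in every GV library and at 40.4 FPKM (YAP-null) and 87.4 FPKM (wild type) at the 4-cell stage, lower by 1.10 with bounds that did not touch. Wwtr1, which encodes the YAP paralog TAZ, was at 15.1 and 21.4 FPKM, and Tead2 at 6.85 and 4.56 FPKM. Of 6 kept members of the YAP, TAZ and TEAD list, 2 were at least 2-fold lower, Yap1 and Tead4, and none higher. After rescaling to the same sum 1 was lower, Yap1, and 1 higher. Without rescaling, the largest upward difference in the list was 0.95, with bounds that did not touch. Of the upstream Hippo genes 2 of 17 were at least 2-fold higher (11.8%, against 17.7% of all genes) and 3 lower (17.6%, against 9.97%). The median of -0.15 changed sign under rescaling to the same sum. The 3 lower ones were at low levels. They were the kinase Lats2 at 0.205 and 3.87 FPKM, and the angiomotins Amot at 0.270 and 3.22 FPKM and Amotl2 at 0.0320 and 2.30 FPKM. The higher ones were the scaffold Wwc2 (111 and 46.5 FPKM) and the kinase Stk3 (4.76 and 1.42 FPKM). Nf2, the most abundant scaffold of the list, was at 116 and 107 FPKM with overlapping bounds.

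Targets of YAP and TEAD known from somatic cells did not move to one side. Only 13 of 28 reached the filter. Of these 4 were at least 2-fold higher (30.8%, against 17.7% of all genes) and 3 lower (23.1%, against 9.97%). The median of 0.22 became -0.05 after quantile normalization. Cyr61, a secreted matrix protein, was at 0.209 FPKM (YAP-null) and 5.28 FPKM (wild type). Ajuba, an adaptor protein that was at 0.231 FPKM or less in oocytes, was at 24.3 and 23.9 FPKM. The apoptosis inhibitor Birc5 was at 259 and 216 FPKM and Myc at 16.8 and 26.7 FPKM. Lats2 and Amotl2, named above, are the other 2 lower members. Tgfb2 and the coagulation receptor F3 were higher in the YAP-null library, at 6.05 against 1.39 FPKM and at 4.78 against 0.681 FPKM. The TEAD letters were found in the promoters of genes on each side, as 3 examples with no difference, or lower in the YAP-null library, show.
Ajuba, chr14:54577830-54577859, minus strand: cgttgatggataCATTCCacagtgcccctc
Galk1, chr11:116012736-116012765, minus strand: ccgcgaaggacaGGAATGtaagtccgcgcc
Dnaja1, chr4:40722762-40722791, plus strand: ggaaggctgccgGGAATGcccggcgccctg
Ajuba holds 2 matches. Galk1, a galactokinase, was at 21.4 and 106 FPKM, and the co-chaperone Dnaja1 at 34.3 and 143 FPKM. Fewer than 80% of the genes at least 2-fold lower could be matched to a RefSeq promoter (78.2%), so a share for that group is void, and no share is compared between higher and lower genes.

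For 30 genes of the 2-cell stage the median was 0.36, with 4 at least 2-fold higher (13.3%, against 17.7% of all genes) and 2 lower. These counts were 8 and 2 after rescaling to the same sum, and 2 and 2 after quantile normalization. Of the 4 higher ones, Zfp750 (11.7 and 0.822 FPKM) and Arg2 (16.1 and 6.54 FPKM) were stored in the oocyte, at 25.7 to 94.6 and 119 to 218 FPKM in the GV libraries. The other 2 were Usp17ld (8.89 and 3.72 FPKM), at 0 in every GV library, and Tmem92 (28.2 and 13.1 FPKM). The Zscan4 genes, which are switched on transiently at the 2-cell stage, were higher in the YAP-null library: Zscan4d was at 12.9 and 6.54 FPKM and Zscan4f at 20.1 and 9.62 FPKM, with bounds that did not touch. They are close copies of each other, so reads may be split among them. Sp110, an abundant member, was at 461 and 633 FPKM. Homeobox and Trim43 genes that appear during cleavage had 5 of 10 members lower and 1 higher, with a median of -0.64; it was -0.47 with 3 lower after rescaling to the same sum and -0.63 with 2 lower after quantile normalization. Crxos1, at 0 FPKM in every GV library, was at 233 FPKM (YAP-null) and 600.5 FPKM (wild type). Trim43a and Trim43b, copies also absent from oocytes, were at 189 against 394 FPKM and at 184 against 384 FPKM. Trim43c was at 67.8 and 76.3 FPKM. The transcripts of Cphx1 and Cphx2 are 100% identical over the 1649 aligned bases and their values were split differently: their sums were 290.2 FPKM (YAP-null) and 260.6 FPKM (wild type), so their single-gene values, which give the 1 higher and 1 of the 5 lower genes, carry no direction.

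**Figure D4:**
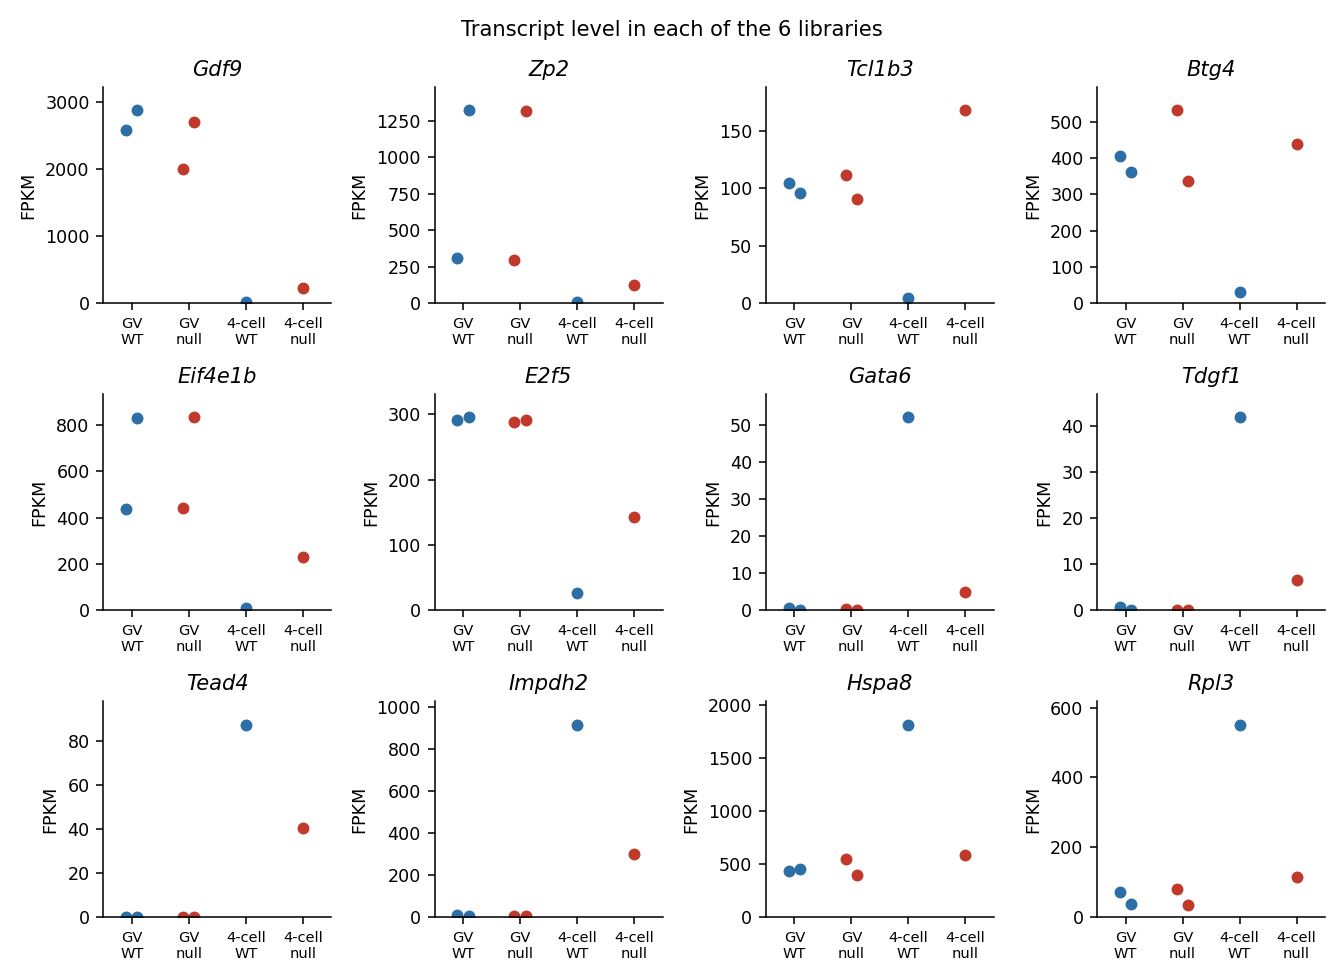
Each panel gives the FPKM of 1 gene, on a linear axis that starts at 0, in the 2 wild-type and 2 YAP-null GV libraries and the single 4-cell library of each genotype. Stored genes such as Gdf9, Tcl1b3 and Btg4 are higher in the YAP-null than in the wild-type 4-cell library, and Gata6, Tdgf1, Tead4 and Impdh2, low in oocytes, are lower.

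Regulators of pluripotency and early lineage choice, many of them scarce in the oocyte, were mostly lower in the YAP-null library. Of 27 kept pluripotency genes 9 were at least 2-fold lower, against 9.97% of all genes, and 1 was higher; the median was -0.73. It was -0.55, with 5 lower and 2 higher, after rescaling to the same sum, and -0.47, with 8 lower and 1 higher, after quantile normalization. Tdgf1, a co-receptor of Nodal, was at 0 FPKM in both YAP-null GV libraries, at 0.642 and 0 FPKM in the wild-type GV libraries, and at 6.48 FPKM (YAP-null) against 41.8 FPKM (wild type) at the 4-cell stage. The factors Klf5 (48.6 and 106 FPKM), Klf2 (69.5 and 168 FPKM), Tbx3 (7.48 and 27.9 FPKM) and Nanog (4.49 and 10.1 FPKM) were lower by 1.02 to 1.77. Pou5f1, which encodes OCT4 and is also stored in the oocyte, was at 322 and 207 FPKM, and Sox2 was at 1.36 and 0.968 FPKM with overlapping bounds. The 1 higher gene was Tcl1 of the family above. The pattern therefore did not cover every member.

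Of 12 early lineage factors kept, 4 were lower (33.3%, against 9.97% of all genes) and 1 higher, and the median was -0.56. It was -0.38 with 4 lower after rescaling to the same sum and -0.67 with 5 lower after quantile normalization. Gata6, the first factor of the primitive endoderm, had the widest gap: 0.0848 to 0.543 FPKM in the GV libraries, 5.03 FPKM (YAP-null) and 52.1 FPKM (wild type), a difference of -3.14. Sox21, a factor that differs between blastomeres of the 4-cell embryo, was at 3.59 and 17.2 FPKM. Other GATA genes did not follow: Gata4 was at 98.4 and 82.8 FPKM and Gata1 at 73.6 and 61.2 FPKM. Of 29 trophectoderm and epithelial genes, 8 were lower (27.6%, against 9.97% of all genes) and 3 higher (10.3%, against 17.7%). Their median of -0.37 was -0.23, with 7 lower and 4 higher, after rescaling to the same sum. After quantile normalization it was -0.45, with 8 lower and 2 higher. The aquaporin Aqp3 was listed at 0 in the YAP-null library, against 16.4 FPKM in wild type. The tight junction gene Cldn4 was at 2.60 and 28.1 FPKM, and the fatty acid carrier Fabp3 at 1.40 and 17.2 FPKM. Tfap2c, the most abundant regulator of this group, was at 72.0 and 101 FPKM. Genes for polarity and compaction had a median of 0.25, with 6 of 27 higher and 2 lower (9 and 1 after rescaling to the same sum). The higher share was 22.2%, against 17.7% of all genes. The polarity scaffold Pard3 was at 77.2 and 22.5 FPKM and the formin Fmnl3 at 93.1 and 20.4 FPKM, both stored in oocytes, and the scaffold Scrib at 3.74 and 8.97 FPKM.

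Signalling ligands and receptors gave a median of 0.60 over 23 of 41 genes. Of the 23, 7 were higher (30.4%, against 17.7% of all genes) and 4 lower (17.4%, against 9.97%). These counts were 10 and 3 after rescaling to the same sum, and 6 and 5 after quantile normalization. Acvr1b, an activin receptor stored in the oocyte, was at 8.39 and 0.407 FPKM. Fgf4, a growth factor absent from the GV libraries, was at 9.70 and 18.9 FPKM, and Igf2r, the receptor that clears IGF2, at 66.5 and 144 FPKM. Further genes with low oocyte levels stood far apart by the same rule of size. The lysosomal regulator Tfeb was at 0 FPKM in all GV libraries and at 2.34 and 20.7 FPKM. The creatine transporter Slc6a8 was at 0.135 FPKM or less in oocytes and at 25.9 and 107 FPKM. The caspase gene Casp6 was at 5.25 and 40.0 FPKM. Among genes at 1 FPKM or more in both libraries, at 20 FPKM or more in the higher and with bounds apart, 1158 were higher and 1323 lower. The 25 largest higher ones (3.20 to 4.64) were all oocyte-stored. Of the 25 largest lower ones (1.96 to 3.50 in size), 9 were stored and 5 were under 1 FPKM in every GV library. Among all 10854 kept genes, 5414 were oocyte-stored and 1535 were under 1 FPKM in every GV library. The stored share among the genes that pass this rule was not computed.

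The genes that build ribosomes and proteins were mostly lower in the YAP-null library. Of 85 cytosolic ribosomal protein genes, 83 were below 0, against 47.8% of all genes, and 34 were at least 2-fold lower, with none at least 2-fold higher. Their median was -0.90; it was -0.71 with 14 lower after rescaling to the same sum, and -0.46 with 7 lower after quantile normalization. A shift of this size was also present between oocyte samples of the same genotype: the GV library 2 minus 1 medians of these genes were -0.86 and -0.78. Between genotypes, by contrast, their GV medians were 0.08 for the libraries numbered 1 and -0.11 for those numbered 2. Abundant genes in general leaned the same way, since the 205 genes with a 4-cell mean of 300 FPKM or more had a median of -0.69, with 50 at least 2-fold lower and 11 higher. Rpl3, of the large subunit, was at 79.8 and 35.6 FPKM in YAP-null oocytes, 73.1 and 37.1 FPKM in wild-type oocytes, and at 115 FPKM against 552 FPKM at the 4-cell stage. Rps18, of the small subunit, was at 334 and 884 FPKM, and Rpl41 at 1109 and 1552 FPKM. Rpl26 was listed at 0.000796 FPKM against 197 FPKM, a gene that also ranged from 12.2 to 86.7 FPKM among oocyte libraries. The 2 members above 0 were the paralogs Rpl10l (109 and 93.8 FPKM) and Rps27l (457 and 408 FPKM). All told the list summed to 32216 FPKM (YAP-null) and 60177 FPKM (wild type).

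Messages of ribosomal proteins and elongation factors typically begin with a run of pyrimidines, the 5' terminal oligopyrimidine tract that ties their translation to growth signals. The annotated start sites of 3 of the genes are shown. Capitals mark the longest C and T run that reaches within 5 bases of the start.
Rps18, chr17:33955651-33955680, minus strand: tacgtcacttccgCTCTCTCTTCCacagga
Eef1a1, chr9:78481710-78481739, minus strand: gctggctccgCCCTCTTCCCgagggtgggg
Rpl41, chr10:128549154-128549183, minus strand: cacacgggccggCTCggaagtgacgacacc
The runs are 11, 10 and 3 bases long. A run of 8 or more within 5 bases of the start occurs in 9.72% of all RefSeq promoters and 9.53% of those of kept genes. Only 78.8% of the ribosomal protein genes could be matched, so no share is given for them.

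The list of translation genes was built mostly from eIF and eEF symbols and so also holds Argonautes (the Eif2c genes), kinases of eIF2 and binding proteins of eIF4E. It had a median of -0.52, with 53 of 65 below 0, 11 at least 2-fold lower and 4 higher; after rescaling to the same sum 7 were lower and 6 higher (median -0.37), and after quantile normalization 5 and 5 (median -0.38). The 11 lower genes include the Argonaute Eif2c4, and the 4 higher ones are Eif4e1b, Eif4e3, the kinase Eif2ak4 and the eIF4E-binding Eif4enif1. Eef1a1, the factor that carries tRNA to the ribosome, was at 559 and 1375 FPKM, Eef1g at 74.9 and 233 FPKM and Eef2 at 406 and 823 FPKM. The 23 aminoacyl-tRNA synthetases were all below 0, with a median of -0.39 and 4 at least 2-fold lower; Vars was at 1.24 and 9.65 FPKM, and Lars at 1.52 and 9.75 FPKM. For ribosome biogenesis 47 of 56 were below 0, with a median of -0.41. Of these 56 genes 5 were at least 2-fold lower (8.93%), no larger a share than the 9.97% of all genes. The nucleolar proteins Npm1 and Ncl were at 738 against 1651 FPKM and at 104 against 249 FPKM. Spliceosome genes were below 0 in 44 of 49, with a median of -0.49 and 6 lower (12.2%, near the share of all genes). The splicing factors Srsf3 and Srsf7 were at 52.7 against 133 FPKM and at 48.2 against 122 FPKM. After rescaling to the same sum the medians of synthetases, ribosome biogenesis and spliceosome were -0.20, -0.22 and -0.31, with 3, 2 and 5 genes lower, beside the all-gene median of 0.23. For these 3 lists the GV library 2 minus 1 medians were near or above 0, between -0.07 and 0.23. For the translation genes they were -0.21 and -0.09.

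Mitochondrial and protein quality genes leaned to the same side. Mitochondrial ribosomal proteins had a median of -0.39, with 20 of 78 lower and none higher, beside GV library 2 minus 1 medians of -0.71 and -0.69. Mrps31 was at 2.18 and 23.8 FPKM. For oxidative phosphorylation 66 of 80 were below 0, with a median of -0.54, 16 lower and 2 higher; the GV medians were -0.20 and -0.14. Ndufs5, of complex I, was at 3.94 and 54.7 FPKM, whereas Uqcr11, of complex III, was at 110.5 and 49.9 FPKM. Proteasome genes were below 0 in 39 of 43, with a median of -0.51 and GV medians of -0.63 and -0.51. Psmd7 was at 128 and 261 FPKM, and the activator Psme4, which is stored, at 36.9 and 15.5 FPKM. Subunits of the CCT chaperonin and of prefoldin, which hands it its clients, had a median of -0.49; Cct4 was at 95.2 and 236 FPKM, and the 1 higher member was the prefoldin Pfdn4, at 37.2 and 15.6 FPKM. Rescaling to the same sum gave medians of -0.20 for mitochondrial ribosomal proteins, -0.35 for oxidative phosphorylation, -0.30 for these chaperonins and -0.31, with 2 lower genes in place of 6, for the proteasome. Cytosolic chaperones with the highest levels were lower as well: Hspa8 was at 399 to 549.9 FPKM in the GV libraries and at 589 FPKM (YAP-null) against 1816 FPKM (wild type), and Hsp90ab1 was at 596 and 1685 FPKM. Their regulator Hsf1, a maternal-effect factor, was at 107 and 51.1 FPKM.

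**Figure D5:**
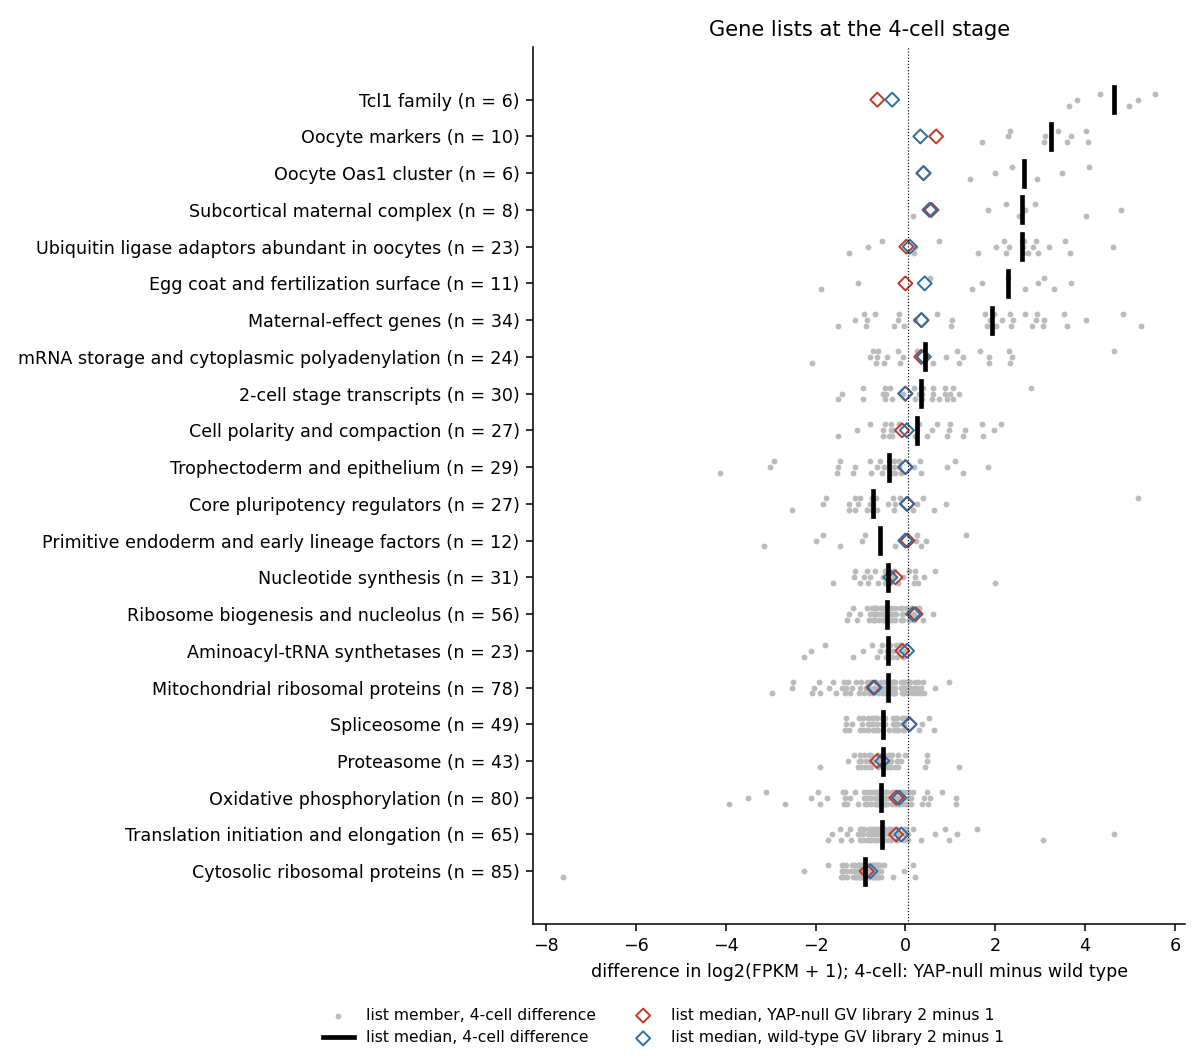
Grey points are the members of each list and black bars the list medians of the 4-cell difference in log2(FPKM + 1), YAP-null minus wild type; open diamonds are the list medians of GV library 2 minus GV library 1 within the YAP-null (red) and wild-type (blue) oocytes, and the dotted line is the median of all genes. The lists from the Tcl1 family to the maternal-effect genes lie far to the right of their diamonds. For mRNA storage genes the bar, 0.44, lies close to the diamonds, 0.35 and 0.41, as it does for ribosomal and proteasome genes. Between genotypes the GV medians of the ribosomal protein genes were 0.08 and -0.11.

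Metabolic genes lay on both sides. Impdh2, the rate-limiting enzyme of guanine nucleotide synthesis, was at 5.07 to 9.73 FPKM in the GV libraries and at 299.6 FPKM (YAP-null) and 915 FPKM (wild type). Nucleotide synthesis genes as a list had a median of -0.39, with 4 of 31 lower and 1 higher. The lower share, 12.9%, was near the 9.97% of all genes. After rescaling to the same sum the median was -0.23, with 1 lower. The pair of ribonucleotide reductase subunits went apart: Rrm2 was at 66.8 and 135 FPKM and Rrm2b at 46.2 and 10.8 FPKM. One-carbon and polyamine genes had 6 of 24 lower (25%, against 9.97% of all genes) and 3 higher (12.5%, against 17.7%). Their median of -0.47 was -0.29 with 4 lower after rescaling to the same sum and -0.24 after quantile normalization. The serine and glycine enzymes Phgdh (121 and 333 FPKM) and Gldc (119 and 260.1 FPKM) were lower, while the mitochondrial folate enzyme Mthfd2 was higher at 47.7 and 12.2 FPKM. S-adenosylmethionine synthetase divided by subunit: the catalytic Mat2a was at 172 and 366 FPKM and the regulatory Mat2b at 248 and 122 FPKM. Amd1 and Amd2, of the same list, have 99.7% identical transcripts and summed to 196.0 and 195.8 FPKM, so the place of Amd1 among the 6 lower genes rests on how reads were split. Glycolysis had a median of 0.04 that changed sign with the scaling; the stored lactate dehydrogenase Ldhb was at 318 and 65.0 FPKM and the hexokinase Hk1, new in the embryo, at 6.69 and 27.2 FPKM.

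Chromatin and genome maintenance genes showed small list medians. For DNA replication the median was -0.17, which changed sign with the scaling. Of 48 genes 8 were lower (16.7%, against 9.97% of all genes) and 3 higher (6.25%, against 17.7%). The clamp loader subunit Rfc3 was at 3.24 and 14.6 FPKM and the origin protein Orc5 at 32.9 and 9.39 FPKM. DNA methylation genes had a median of 0.15, with 4 of 18 higher (22.2%, against 17.7% of all genes) and none lower. The oxidase Tet3, which acts on the paternal genome after fertilization, was at 5.23 and 0.733 FPKM. Zfp57, a keeper of imprints, was at 56.2 and 15.8 FPKM, and the maintenance enzyme Dnmt1 at 38.4 and 23.9 FPKM. All 3 are stored in oocytes and were below every GV value in both 4-cell libraries. Chromatin modifiers had a median of -0.10, a sign that changed with the scaling. Of 44 genes 3 lay on each side (6.82%, against 17.7% of all genes higher and 9.97% lower). The remodeller Smarca4, higher in both 4-cell libraries than in any GV library, was at 59.5 and 131 FPKM, and the Polycomb gene Cbx2 at 76.2 and 18.1 FPKM. Slbp, which binds histone mRNA, was at 365 and 106 FPKM.

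Genes of cell death and stress differed in both directions. Of 14 kept Bcl2 family genes, 3 were higher (21.4%, against 17.7% of all genes) and 4 lower (28.6%, against 9.97%). Their median was -0.26. Bcl2l1, a guard against apoptosis, was at 54.2 and 15.5 FPKM, while the promoters of apoptosis Bax and Bad were at 32.8 against 81.1 FPKM and at 4.05 against 16.2 FPKM. For p53 targets the median was -0.28, with 4 of 25 higher (16%) and 2 lower (8%), near the shares of all genes (17.7% and 9.97%). After quantile normalization 2 were higher and 4 lower. The p53 inhibitor Mdm4 was at 170.4 and 42.9 FPKM and the cell cycle inhibitor Cdkn1a at 37.7 and 55.1 FPKM. Prdx2, a stored peroxidase, was at 257 and 47.6 FPKM. The metallothioneins Mt1 and Mt2 were at 699 against 1010.5 FPKM and at 677 against 992 FPKM. Imprinted genes had 3 of 12 on each side (25%, against 17.7% of all genes higher and 9.97% lower). After rescaling to the same sum 3 were higher and none lower.

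Traces of other cells were small but not equal between the libraries. Granulosa and cumulus markers summed to 1.89 FPKM (YAP-null) and 1.46 FPKM (wild type), with 0 of 12 past the filter and 9 and 6 of them at 0. Ovarian stroma and vessel markers had 1 of 7 past the filter, Pecam1, which embryos and oocytes also held, and summed to 15.1 and 28.5 FPKM. Red blood cell genes summed to 25.9 and 93.6 FPKM; the beta globins Beta-s and Hbb-b2 were at 0 in the YAP-null library, against 25.2 and 15.9 FPKM in wild type. The alpha globins Hba-a1 and Hba-a2, with 99.8% identical transcripts, summed to 25.9 and 52.3 FPKM. Leukocyte markers were at 0 in the YAP-null library and summed to 12.5 FPKM in the wild-type library, of which Lyz2 gave 9.59 and Cd68 2.29 FPKM. Oviduct epithelium markers summed to 72.2 and 63.3 FPKM, of which Epcam, also an epithelial gene of the embryo, gave 65.3 and 57.3 FPKM. Of the sperm genes Prm2 alone passed the filter, at 5.09 and 0 FPKM, and it was also at 2.28 to 10.2 FPKM in the GV libraries. Their part in the 4-cell differences was not tested. Genes at 10 FPKM or more in 1 library and under 0.1 in the other numbered 21 on the lower side, 14 of them listed at 0, and 3 on the higher side (Rn4.5s, Crabp2 and Gm813).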

How the data were processed

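Bulk RNA of 60 oocytes or embryos per library was sequenced paired-end on an Illumina HiSeq after library construction with an NEB kit, per the labels' protocols. Per the file headers, the authors deposited 1 gene table per library with FPKM values and lower and upper bounds. CASAVA 1.8, TopHat and mm9 were used, per the submitters' processing notes. Not given in the sources used here are the TopHat version, the quantification tool, its annotation release and the confidence level of the bounds. The tables hold no read counts, so depth is unknown; from the widths of the bounds the YAP-null 4-cell library was about 0.837 times as deep as the wild-type one.

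Each table has 23813 lines. The single line with a failed status was dropped, and FPKM was summed over loci for 260 symbols, which left 23308 symbols. Genes that averaged 1 FPKM or more over both 4-cell libraries were kept, and differences are YAP-null minus wild type in log2(FPKM + 1), which understates the change of low genes. At least 2-fold means a difference of 1 or more on that scale. For 90.3% of 10783 genes at 1 locus both values lay inside their own bounds; statements on bounds use only these. With 1 library a genotype no test was run. The code (Python 3.11.15, pandas 2.3.3, numpy 2.4.6, matplotlib 3.10.9) was tested on simulated data. Promoter sequences are from RefSeq (GRCm38.p6) and matched 80.8% of kept genes by symbol. Coordinates of genes are in mm9 and those of sequences in GRCm38.p6, counted from 1. Identity between transcript copies was computed from the reference transcripts of the mouse genome annotation.

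The members and the gene lists were chosen with earlier results of these data known. Genes were named by a rule: Yap1; up to 4 members per list with the largest difference where the 4-cell mean reached 5 FPKM, and up to 2 with the highest mean; the 25 largest differences each way; the 10 largest in FPKM; the 10 each way found in 1 library alone; and the 10 largest each way among oocyte-stored and oocyte-absent genes. Some further members, and the pairing of the connexins, were chosen after their values were seen. Alternatives were other pseudocounts, filters, scalings, fold limits and set limits.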

Additional observations from a re-analysis of the deposited data

How the results depend on the processing

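No paired analysis was possible because each genotype has a single 4-cell library, which also leaves no library to take out. The counts of genes at least 2-fold apart, higher in YAP-null and lower in YAP-null were 1723, 1083 and 640 with a mean of at least 5 FPKM, 1275, 834 and 441 with a pseudocount of 5 FPKM, and 696, 495 and 201 at 4-fold. The median of oocyte-stored genes (0.16) was 0.084, 0.13, 0.35 and 0.10 with that filter, that pseudocount, rescaling to the same sum and quantile normalization, 0.25 with a GV mean of at least 50 FPKM, and 0.26 for genes at 1 locus with values inside their bounds, an alternative chosen after seeing the data. The median of oocyte-absent genes (-0.11) reversed to 0.065 after rescaling to the same sum and was -0.36 after quantile normalization. Yap1 was at -1.21 after rescaling to the same sum. The stricter filter leaves fewer genes to count; otherwise the cause was not tested. Depth limits genes near 1 FPKM, and the unknown spread between embryo samples limits every 4-cell value.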
